A study of Rattus norvegicus with 84 samples.

Results

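The dentate gyrus (DG) was compared with field CA1 of the hippocampus in 12 male rats of 5 months, by RNA sequencing of 1 library from each region of every rat. The rats are F344, an inbred strain used in ageing research, and the labels name no treatment. The comparison uses 24 of the 84 libraries of the study, which also holds CA3 libraries of the same rats and all 3 regions of 16 male F344 rats of 12 months. The 24 libraries were chosen by age and by animal number (3337 to 3342 and 3593 to 3598), and both libraries of a rat come from 1 hemisphere. Each library holds all the RNA of a dissected piece of tissue, so neurons, glia and vessels are read together. The labels give the animals no group other than age, and they do not say what the 2 runs of animal numbers stand for.

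The DG and CA1 stand at opposite ends of the hippocampal circuit. Granule cells of the DG receive the input from the entorhinal cortex, fire sparsely and send mossy fibres to CA3, and the DG keeps adding neurons in the adult. CA1 pyramidal cells receive the output of CA3 and a direct entorhinal input, and they project to the subiculum and the cortex. Granule cells are known for the transcription factor Prox1 and the secreted synaptic protein C1ql2, and CA1 pyramidal cells for Wfs1, a protein of the endoplasmic reticulum.

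Promoters of 4 genes that lie far apart between the regions are shown first, to set their sequence beside the levels that follow. C1ql2 and Pdyn (prodynorphin, an opioid peptide precursor) were higher in the DG, and Wfs1 and Nts (neurotensin, a neuropeptide) were higher in CA1. The sequences are from RefSeq, build GRCr8, and run from 250 bases before to 50 bases after the annotated transcript start. Capitals mark the CG dinucleotides, the sites of most DNA methylation in mammals. C1ql2 lies at chr13:34023652-34023951 on the plus strand, Pdyn at chr3:137366454-137366753 on the minus strand, Wfs1 at chr14:78034955-78035254 on the plus strand and Nts at chr7:39460839-39461138 on the minus strand.
C1ql2: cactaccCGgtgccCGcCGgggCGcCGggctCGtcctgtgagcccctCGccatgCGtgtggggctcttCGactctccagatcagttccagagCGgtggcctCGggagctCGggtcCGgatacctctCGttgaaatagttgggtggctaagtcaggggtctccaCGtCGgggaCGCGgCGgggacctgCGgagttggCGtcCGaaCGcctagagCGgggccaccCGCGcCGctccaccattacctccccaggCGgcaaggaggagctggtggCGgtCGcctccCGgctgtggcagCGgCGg
Pdyn: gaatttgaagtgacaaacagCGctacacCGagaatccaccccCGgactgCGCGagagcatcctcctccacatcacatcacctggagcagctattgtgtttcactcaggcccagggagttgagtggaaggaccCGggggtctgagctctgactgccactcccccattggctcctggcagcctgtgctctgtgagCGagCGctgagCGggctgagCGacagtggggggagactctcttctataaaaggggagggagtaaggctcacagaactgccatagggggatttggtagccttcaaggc
Wfs1: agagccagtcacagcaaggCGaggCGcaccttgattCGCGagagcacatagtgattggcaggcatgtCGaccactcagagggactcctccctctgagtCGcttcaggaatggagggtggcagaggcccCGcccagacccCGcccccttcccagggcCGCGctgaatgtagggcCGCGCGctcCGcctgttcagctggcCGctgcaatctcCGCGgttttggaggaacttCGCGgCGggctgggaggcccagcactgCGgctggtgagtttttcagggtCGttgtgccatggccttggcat
Nts: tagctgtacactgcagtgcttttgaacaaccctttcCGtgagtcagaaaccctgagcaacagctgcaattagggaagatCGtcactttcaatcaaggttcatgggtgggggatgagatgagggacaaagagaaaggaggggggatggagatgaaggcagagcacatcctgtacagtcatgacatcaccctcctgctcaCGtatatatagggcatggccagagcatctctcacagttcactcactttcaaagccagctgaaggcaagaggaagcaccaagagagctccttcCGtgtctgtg
Both directions hold a promoter rich in CG dinucleotides, with 33 in C1ql2 and 22 in Wfs1, and a poorer one, with 10 in Pdyn and 4 in Nts. The median of all 27457 promoters in the table was 7. The TATA motif TATAAA, searched on both strands, is in the window of Pdyn and in 14.3% of all promoters of this length. This exact string is not in the other 3 windows. Variants of the motif were not searched, and the window of Nts holds the run tatatata. Only 67.7% of the genes at least 2-fold higher in the DG and 68.6% of those at least 2-fold higher in CA1 had a promoter in the table, under the 80% set for a check over a set, so the promoters of the groups were not compared.

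Between the regions, 7108 of 14495 tested genes differed within rats, which is 49% of all genes tested. The DG was higher in 3545 genes (24.5%) and CA1 in 3563 (24.6%). The test was limma on log2 of the normalized read count plus 1 with the rat as a block, with Benjamini-Hochberg adjustment over all genes and a threshold of 0.05. Differences are given below as DG minus CA1 on this log2 scale, with the SE over 12 rats, and levels as normalized read counts, which are read counts divided by 1 size factor per library. Most differences were small, with a median absolute size of 0.43 among called genes. The median over all tested genes was 0.00057, a value that the joint scaling sets near 0. The DG share of called genes leans on the scaling too. It was 48.0% with counts scaled to the library total and 51.4% with quantile normalization. A difference of at least 2-fold was found in 1050 genes (7.24%), of which 464 were higher in the DG (3.2%) and 586 in CA1 (4.04%). At least 4-fold were 97 genes in the DG and 106 in CA1, and at least 8-fold 19 and 30. In 1313 genes (9.06%) the lowest library of a region lay above the highest library of the other, 682 with the DG higher (4.71%) and 631 with CA1 higher (4.35%). The counts of each gene list below stand against these shares of all tested genes.

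**Figure D1:**
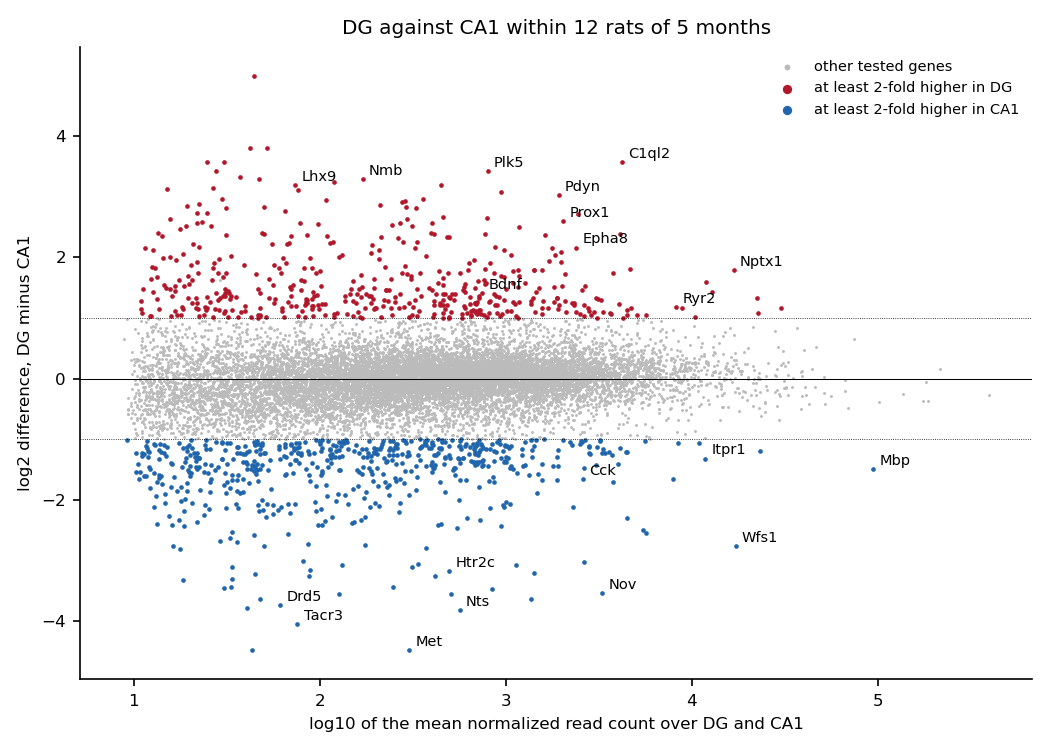
Each point is 1 of 14495 genes, with the log10 of its mean normalized read count over both regions on the horizontal axis and the log2 difference, DG minus CA1, on the vertical axis. Red points are the 464 genes called and at least 2-fold higher in the DG, and blue points the 586 called and at least 2-fold higher in CA1. Both kinds appear at low and at high levels, but no mitochondrially encoded gene is among them.

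The libraries held 15.0 to 20.4 M reads in the DG and 14.4 to 21.5 M in CA1. The first principal component of the 24 libraries carried 40.1% of the variance and parted the regions, and the second carried 13.5% and parted the runs of animal numbers. The DG libraries of rats 3339 and 3342 stood apart, with summed levels of mitochondrially encoded genes of 2463100 and 2589500 against 639180 to 1222500 in the other 10. Their summed microglia markers were high as well, at 11129 and 11551 against 7095 to 9131. Without these 2 rats, a choice made after seeing the data, 7141 genes were called, 1023 of them at least 2-fold. Of the symbols, 15197 stand in both tables, 177 in that of the DG alone and 356 in that of CA1 alone. None of the latter groups reached a median of 100 at 5 months, so no gene of high level was lost by the join. The 2 tables were normalized separately by the submitters, so the region and the table cannot be told apart. A gene can be lower in a region because fewer cells there express it or because each cell holds less of its RNA, and these cannot be told apart in tissue.

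The dissection was read from markers of granule cells and of CA1 pyramidal cells. All 19 tested granule cell markers of 23 listed were higher in the DG, 15 of them at least 2-fold, with a median difference of 1.58. Prox1 ranged from 2803 to 4355 in the DG (median 3405) and 214 to 1199.9 in CA1 (median 596), a difference of 2.60 ± 0.17 (limma, adjusted p = 6.34e-10). Dsp, which encodes the junction protein desmoplakin, ranged from 521 to 1026 in the DG (median 763) and 48.7 to 283 in CA1 (median 135). Neither gene overlapped between the regions. The calcium buffer gene Calb1, expressed in granule cells and in part of the CA1 pyramidal cells, differed less, at 0.58 ± 0.11 (limma, adjusted p = 0.000223), with a median of 924 in the DG and 585 in CA1.

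All 9 tested CA1 markers of 11 listed were higher in CA1, each at least 2-fold, with a median difference of -2.77. Wfs1 ranged from 18867 to 35734 in CA1 (median 29150) and 1341 to 12265 in the DG (median 3560.2), a difference of -2.77 ± 0.24 (limma, adjusted p = 2.21e-08). Mpped1 ranged from 7441 to 12123 in CA1 (median 9188) and 702 to 3566 in the DG (median 1611), and Fibcd1, a receptor for acetylated groups, from 6161 to 13234 in CA1 (median 8977) and 796 to 3193 in the DG (median 1679). None of these 3 genes overlapped, but their spread in the DG was wide. Each marker's level in the other region was taken as a share of its median in its own region. In the DG libraries the median share over the CA1 markers was 4.60 to 33.2%, and in the CA1 libraries that over the granule markers was 23.97 to 53.5%. The CA1 markers were highest in the DG libraries of rats 3598 (33.2%) and 3593 (30.7%), and the granule markers in the CA1 library of rat 3593. Without these 2 rats 6616 genes were called, 1139 of them at least 2-fold. Whether these levels came from tissue of the other region or from the region's own cells was not tested.

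Markers of neighbouring cell groups stood in both regions. Of 10 tested CA3 pyramidal cell markers 7 were higher in the DG and 1 in CA1, with summed levels of 14101 to 18069 in the DG, 7683 to 8632 in CA1 and 21743 to 27414 in the CA3 libraries of the same rats. Cpne4, a copine that binds membranes in response to calcium, ranged from 3299.9 to 4794 in the DG (median 4201) and 408 to 1197 in CA1 (median 592) and had a CA3 median of 7064. Of 6 CA2 markers 4 were higher in CA1, 2 of them at least 2-fold, 1 was higher in the DG and 1 did not pass, with summed levels of 7668 to 11855 in CA1 and 5365 to 8362 in the DG. Rgs14, a regulator of G protein signalling that limits plasticity in CA2, was higher in CA1, at 3677 to 5663 in CA1 (median 4416) and 1417 to 2866 in the DG (median 1986). Pcp4 was the 1 CA2 marker higher in the DG, with a median of 1694 in the DG and 751 in CA1. Of 8 subiculum markers 6 were higher in CA1, Nts among them, and 2 in the DG (Ntng2 and Gpr101, the latter not called without rats 3593 and 3598). Slc17a6 is another of the 6, the gene of the vesicular glutamate transporter VGLUT2, with a median of 468 in CA1 and 91.7 in the DG. Mossy cells are the glutamatergic neurons of the DG hilus, and of their 5 markers 1 was higher in the DG (Nmb) and 3 were higher in CA1 (Calb2, Drd2 and Calcrl). The part of these neighbouring cell groups in the differences below was not tested.

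**Figure D2:**
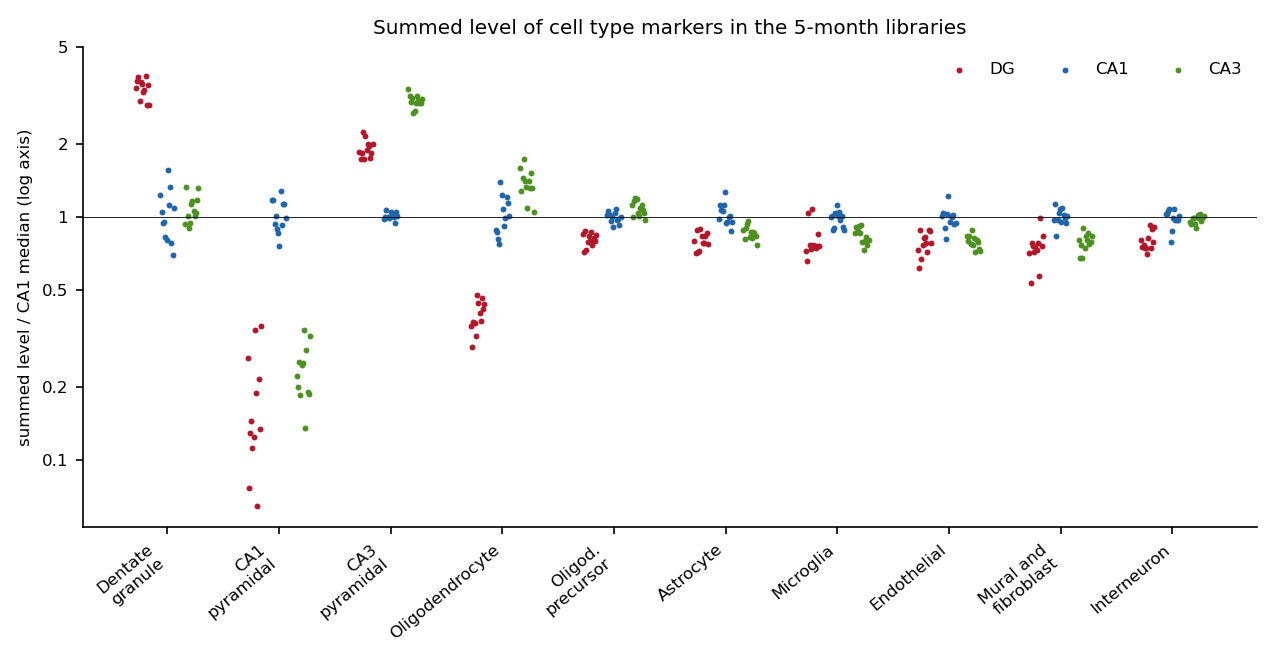
Each point is 1 library of a 5-month rat, with the summed normalized read count of a marker list divided by the CA1 median of that list on a log axis. Granule cell markers sit highest in the DG, CA1 markers highest in CA1, CA3 markers highest in CA3, and oligodendrocyte markers lowest in the DG.

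Among genes with a mean of at least 100 in the higher region, the widest margins for the DG were those of C1ql2, Plk5 and Nmb. C1ql2, a C1q-related protein that mossy fibres secrete, ranged from 5476 to 9782 in the DG (median 8005) and 120.1 to 2209 in CA1 (median 629), 11.9-fold higher (log2 difference 3.57 ± 0.30, limma, adjusted p = 1.81e-08). Plk5, a polo-like kinase expressed in neurons, ranged from 561 to 2108 in the DG (median 1603) and 32 to 455 in CA1 (median 108), and its difference was 3.42 ± 0.25 (limma, adjusted p = 3.23e-09). Its lowest DG libraries were those of rats 3339 and 3342, and without both rats the difference was 3.56. Nmb encodes the peptide neuromedin B and ranged from 216 to 433 in the DG (median 296) and 13.8 to 103 in CA1 (median 26.2), a difference of 3.29 ± 0.18 (limma, adjusted p = 1.4e-10). In all 3 genes every DG library lay above every CA1 library.

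Others of this leading group were Ghsr, Npy2r, Gdf10, Gpc3, Pdyn, Svep1 and Calml4. Ghsr, the receptor of the stomach hormone ghrelin, ranged from 171 to 271 in the DG (median 211) and 3.81 to 57.3 in CA1 (median 21.9). Npy2r, a presynaptic receptor for neuropeptide Y, ranged from 93.4 to 175 in the DG (median 123) and 0 to 58.2 in CA1 (median 19.1), a difference of 3.11 ± 0.42 (limma, adjusted p = 7.66e-06). Gdf10, a ligand of the TGF-beta family, had a median of 624 in the DG and 83.7 in CA1, and the heparan sulfate proteoglycan gene Gpc3 a median of 493 in the DG and 72.1 in CA1. Pdyn ranged from 2451 to 4182 in the DG (median 3234) and 134 to 1121 in CA1 (median 422), which is 8.18-fold higher in the DG. The adhesion protein gene Svep1 had a median of 1593 in the DG and 230.0 in CA1, and the calmodulin-like gene Calml4 a median of 177 in the DG and 22.2 in CA1. None of the 7 genes overlapped between the regions. Below the level of 100, and outside the rule for named genes, the gene with the largest difference of all was Bhlhe23, a basic helix-loop-helix factor, with 64.7 to 122 in the DG (median 87.2) and 0 to 6.69 in CA1 (median 2.01) and a CA3 median of 87.8; it was picked after its values were seen.

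For CA1 the widest margin was that of Met, the receptor of hepatocyte growth factor. It ranged from 394 to 683 in CA1 (median 575) and 3.59 to 105 in the DG (median 28.8), 22.3-fold higher (log2 difference -4.48 ± 0.32, limma, adjusted p = 2.55e-09). Tacr3, a receptor for the tachykinin neurokinin B, ranged from 49.5 to 203 in CA1 (median 142) and 0 to 60.5 in the DG (median 7.55), and Nts, also on the list of subiculum markers, from 465 to 1362 in CA1 (median 1024) and 0 to 262 in the DG (median 89.3). The regions overlapped in Tacr3 alone of these 3, where the highest DG library lay above the lowest CA1 library, although CA1 was higher in 12 of 12 rats. Adgrl2, which encodes the adhesion receptor latrophilin-2, ranged from 1979.5 to 2821 in CA1 (median 2545) and 66.2 to 498 in the DG (median 225), a difference of -3.63 ± 0.24 (limma, adjusted p = 8.92e-10). Latrophilin-2 is known to place entorhinal synapses on CA1 dendrites. Nov, a secreted matrix-associated protein also named CCN3, ranged from 4721 to 7343 in CA1 (median 6064) and 171 to 1600.2 in the DG (median 526). Nxph3, a secreted ligand of neurexins, had a median of 1533 in CA1 and 128 in the DG, and Ndst4, an enzyme of heparan sulfate synthesis, a median of 446 in CA1 and 34.9 in the DG.

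**Figure D3:**
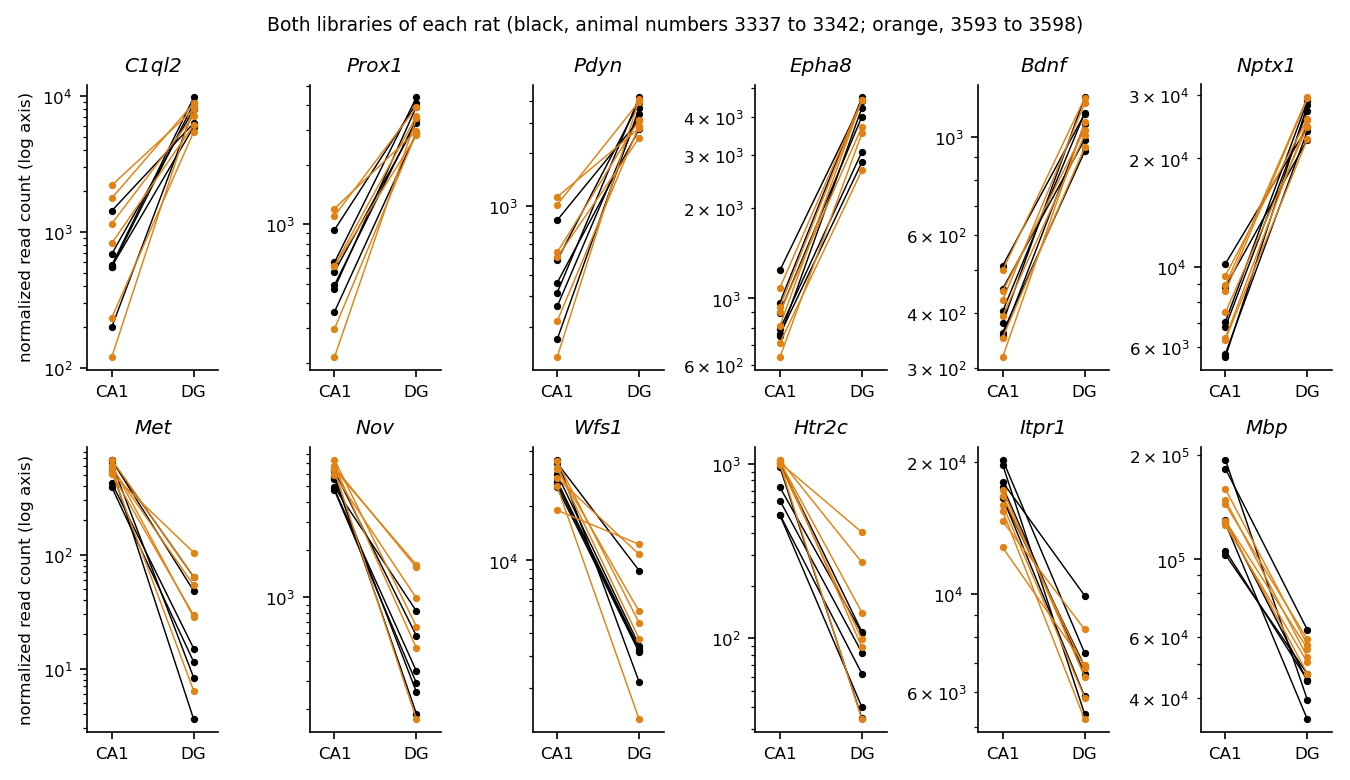
Each line joins the CA1 and DG libraries of 1 rat, with the normalized read count on a log axis, in black for animal numbers 3337 to 3342 and in orange for 3593 to 3598. In the upper 6 genes the DG library lies above the CA1 library in all 12 rats, and in the lower 6 genes it lies below in all 12.

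Some genes of moderate fold differed with little spread between rats, and these had the smallest p values. Epha8, an ephrin receptor, had the smallest of all at 2.16 ± 0.07 (limma, adjusted p = 5.54e-13), from 2666 to 4659 in the DG (median 4168) and 638 to 1241 in CA1 (median 854). Ryr2, the calcium release channel of the endoplasmic reticulum, ranged from 8916 to 14813 in the DG (median 11294) and 4004 to 6652 in CA1 (median 5232), a difference of 1.18 ± 0.05 (limma, adjusted p = 1.28e-11). Orai2, a calcium channel of the plasma membrane opened by store depletion, ranged from 2638 to 3786 in the DG (median 3052) and 614 to 1158 in CA1 (median 799). Smpd2, a sphingomyelinase, had a median of 1370.4 in the DG and 397 in CA1. All 4 genes were higher in the DG in 12 of 12 rats without overlap. On the CA1 side were Ano4, a member of the anoctamin family (-1.71 ± 0.07, limma, adjusted p = 1.94e-11), and Cadps2, which primes dense-core vesicles for release (-2.42 ± 0.11, limma, adjusted p = 2.78e-11). Cadps2 ranged from 1302 to 1888 in CA1 (median 1620.0) and 181 to 484 in the DG (median 292). Klk6, Mal and Sept4, known from myelinating oligodendrocytes, were also in this group, and Mal ranged from 2856 to 5493 in CA1 (median 3718) and 1070.1 to 1708 in the DG (median 1324).

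Of 56 tested transcription factors of the forebrain 24 were higher in the DG and 20 in CA1, against 24.5% and 24.6% of all genes, and their median difference was 0.04. At least 2-fold were 5 in the DG and 11 in CA1. Beside Prox1 the DG was higher for the bHLH factors Bhlhe22, at 2519 to 3519 in the DG (median 2976) and 681 to 1451 in CA1 (median 1043), and Neurod1, at 692 to 1123 in the DG (median 891) and 238 to 433 in CA1 (median 324). Neither overlapped. Rfx3 and Glis3, listed as granule cell markers, differed by 1.58 ± 0.13 and 1.29 ± 0.10. Nhlh1 and Lhx9, which belong to no list, stood among the largest differences, with medians of 758 in the DG and 93.4 in CA1 for Nhlh1 and 129 in the DG and 17.1 in CA1 for Lhx9, a LIM homeobox gene.

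Among the factors with large differences toward CA1 was Pou3f1, a POU domain factor. It ranged from 1843 to 3485 in CA1 (median 2443) and 65.1 to 811 in the DG (median 312), 9.27-fold higher in CA1 (-3.21 ± 0.27, limma, adjusted p = 1.99e-08). The regions did not overlap. Meis2 and Meis1, TALE homeobox factors, had medians of 733 in CA1 and 121 in the DG for Meis2 and 40.8 in CA1 and 10.6 in the DG for Meis1. Their differences were -2.41 ± 0.21 and -1.87 ± 0.20, and both were higher in CA1 in 12 of 12 rats. Klf9, which responds to corticosteroids, was higher in the DG by a smaller margin of 0.41 ± 0.05 (limma, adjusted p = 2.01e-06).

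The main AMPA and NMDA receptor subunits differed by less than 2-fold between the regions. For AMPA receptors and their auxiliary subunits, 4 of 14 were higher in the DG, 4 in CA1 and 6 did not pass, with a median difference of -0.03. Gria1, the GluA1 subunit, ranged from 8571 to 13574 in the DG (median 10649) and 7582 to 11343 in CA1 (median 8509), a small difference of 0.26 ± 0.07 (limma, adjusted p = 0.00609), and Gria3 had -0.44 ± 0.08. Cacng5, which encodes an auxiliary subunit that is high in CA2, was the only one of the 14 past 2-fold, with 103 to 202 in CA1 (median 169.6) and 43.4 to 124 in the DG (median 59.5). Of 6 NMDA receptor genes 2 passed, both higher in CA1, and 4 passed toward CA1 without rat 3342. The smaller difference of the 2 was that of Grin2a, at -0.43. Grin3a, the GluN3A subunit that lowers calcium entry, ranged from 117 to 331 in CA1 (median 266) and 48 to 140.4 in the DG (median 77.8), a difference of -1.57 ± 0.14 (limma, adjusted p = 4.67e-08). Its regions overlapped, as 1 CA1 library lay just below the 3 highest DG libraries, and CA1 was higher in 12 of 12 rats. Grin1, the obligatory subunit, did not pass at 0.15 ± 0.06 (limma, adjusted p = 0.052), with a median of 15757 in the DG and 14536 in CA1.

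Kainate receptor genes stood on both sides, 4 of 7 higher in the DG and 2 in CA1, with a median of 0.57. Grik4, a high-affinity subunit known from mossy fibre synapses, ranged from 1878 to 2657 in the DG (median 2212) and 467 to 907 in CA1 (median 618), a difference of 1.79 ± 0.07 (limma, adjusted p = 1.28e-11). Neto1, an auxiliary subunit, ranged from 1127 to 1651 in the DG (median 1498) and 468 to 813 in CA1 (median 681). Grik1 and the other auxiliary subunit, Neto2, were higher in CA1, with medians of 247 in CA1 and 106 in the DG for Grik1 and 339.9 in CA1 and 134 in the DG for Neto2. None of these 4 overlapped between the regions. Grik4 is also on the list of CA3 pyramidal cell markers. Grik2 (GluK2) and Grik5 (GluK5) were higher in the DG by smaller margins of 0.80 ± 0.11 and 0.57 ± 0.09, and Grik3 did not pass (0.10 ± 0.11, limma, adjusted p = 0.437).

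All 10 tested genes of metabotropic glutamate receptors and their Homer scaffolds passed, 4 higher in the DG and 6 in CA1, of which Grm4 did not pass without the rat as a block (limma, adjusted p = 0.05553). Grm2, a presynaptic autoreceptor of mossy fibres, ranged from 2254 to 3663 in the DG (median 2932) and 398 to 1282 in CA1 (median 811), 4.1-fold higher in the DG (limma, adjusted p = 7.71e-10). Grm8 had a median of 175 in CA1 and 58.5 in the DG and Grm5 differed little, at -0.28 ± 0.08 (limma, adjusted p = 0.0057). The scaffolds divided, since Homer3 was higher in the DG (1054 to 1959 in the DG, median 1479.8, and 396 to 653 in CA1, median 518) and Homer2 in CA1 (366 to 637 in CA1, median 501, and 117 to 212 in the DG, median 168). Homer1 was higher in CA1 as well, with a difference of -1.07 ± 0.07, and none of Grm2, Homer2 and Homer3 overlapped. Homer3 is also on the list of CA3 pyramidal cell markers.

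For GABA receptors, 7 of 14 genes were higher in the DG and 5 in CA1. Gabrd and Gabra4 encode the delta and alpha4 subunits of receptors that carry tonic inhibition in granule cells. Gabrd ranged from 904 to 1514 in the DG (median 1287) and 394 to 785 in CA1 (median 525), a difference of 1.22 ± 0.08 (limma, adjusted p = 5.79e-10), and Gabra4 from 2023 to 2518 in the DG (median 2174) and 1164 to 1772 in CA1 (median 1368). Neither overlapped. Gabra2, an alpha subunit of synaptic receptors, was higher in the DG (0.63 ± 0.08). Gabbr2, a subunit of the GABA-B receptor, had a median of 9938 in the DG and 6997 in CA1. Gabra5, known for tonic inhibition in CA1, did not pass (-0.07 ± 0.07, limma, adjusted p = 0.392), with a median of 1595 in the DG and 1714 in CA1; it stands outside the rule for named genes and was picked after its values were seen.

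Of 49 potassium channel genes 23 were higher in the DG and 17 in CA1, with a median of 0.12. Kcnc4 (Kv3.4), a fast inactivating channel of mossy fibre boutons, ranged from 2530.4 to 3753 in the DG (median 3194) and 667 to 1658 in CA1 (median 995), a difference of 1.72 ± 0.11 (limma, adjusted p = 6.17e-10). The inward rectifier Kcnj2 (Kir2.1) and the leak channel Kcnk1 (TWIK1) had medians of 156 in the DG and 67.1 in CA1 for Kcnj2 and 1375 in the DG and 611 in CA1 for Kcnk1. Higher in CA1 were Kcnh7, an ether-a-go-go related channel listed as a CA1 marker (265 to 585 in CA1, median 425, and 42.7 to 173 in the DG, median 98.9), and Kcnn2 (SK2), a calcium-activated channel (517 to 702 in CA1, median 612, and 176 to 431 in the DG, median 282). None of these 5 overlapped between the regions. The sodium-activated channel Kcnt1 differed by -1.37 ± 0.17 (limma, adjusted p = 3.05e-06) and the leak channel Kcnk3 by -1.31 ± 0.10.

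Among 33 sodium, calcium, HCN and TRPC channel genes 11 were higher in the DG, 13 in CA1 and 9 did not pass. The L-type calcium channel gene Cacna1c (Cav1.2) ranged from 1747 to 2616 in the DG (median 2269.6) and 542 to 1188 in CA1 (median 815), a difference of 1.5 ± 0.08 (limma, adjusted p = 7.8e-11), and Cacna1d (Cav1.3) differed by 0.95 ± 0.09. Trpc6, a cation channel of the list of granule cell markers, ranged from 542 to 815 in the DG (median 665) and 151 to 356 in CA1 (median 184). Neither Cacna1c nor Trpc6 overlapped between the regions. Trpc4 and the auxiliary subunit gene Cacna2d2 were higher in CA1, with differences of -0.99 ± 0.07 and -1.20 ± 0.08.

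Receptors for acetylcholine, serotonin, dopamine and noradrenaline set how neurons respond to input from the brainstem and basal forebrain. Of 34 tested 17 were higher in CA1 and 10 in the DG, and at least 2-fold were 11 in CA1 (32.4% of the list, against 4.04% of all genes) and 1 in the DG. Drd5, a dopamine receptor of the D1 class, ranged from 43.2 to 146 in CA1 (median 113) and 0 to 42.1 in the DG (median 11), a difference of -3.74 ± 0.36 (limma, adjusted p = 1.04e-07). Htr2c and Htr1b, both serotonin receptors, ranged from 507 to 1052 in CA1 (median 988) and 34.1 to 404 in the DG (median 93.5) for Htr2c and from 352 to 841 in CA1 (median 509) and 12.9 to 165 in the DG (median 58.8) for Htr1b. No library of the DG reached a CA1 library in these 3 genes. Chrna5, a nicotinic receptor subunit, had a median of 175 in CA1 and 32.2 in the DG, and the dopamine receptor Drd2 one of 66.8 in CA1 and 21.9 in the DG. The 1 gene at least 2-fold higher in the DG was the serotonin receptor Htr1a, at 771 to 1185 in the DG (median 1017) and 149 to 666 in CA1 (median 364) (1.5 ± 0.14, limma, adjusted p = 6.94e-08). Smaller differences toward the DG were those of Htr4 (0.84 ± 0.13), of the alpha1D adrenoceptor Adra1d (0.81 ± 0.10) and of Chrna7, the alpha7 nicotinic subunit (0.60 ± 0.08).

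Neuropeptide receptors were divided more evenly, with 10 of 24 higher in the DG and 8 in CA1. In the DG, beside Npy2r, the neuropeptide Y receptor gene Npy5r ranged from 91.8 to 147 in the DG (median 119.9) and 29.4 to 70.3 in CA1 (median 50.4) and the thyrotropin-releasing hormone receptor gene Trhr from 51.9 to 116 in the DG (median 80.5) and 9.38 to 55.5 in CA1 (median 27.9). The somatostatin receptors divided, as Sstr3, the receptor of neuronal cilia, was higher in the DG (618 to 1290.3 in the DG, median 775, and 264 to 564 in CA1, median 346) and Sstr4 in CA1 (631 to 1043 in CA1, median 734, and 197 to 381 in the DG, median 263). Of these 4 genes Trhr alone overlapped, and it is also on the list of CA3 pyramidal cell markers. Mchr1, the receptor of melanin-concentrating hormone, was 2.64-fold higher in CA1 (limma, adjusted p = 9.09e-09).

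Among 25 neuropeptide and granin genes 7 were higher in the DG and 10 in CA1. Granule cells are known to make the opioid peptides, and Penk (proenkephalin) ranged from 611 to 1421 in the DG (median 912) and 232 to 733 in CA1 (median 378), a difference of 1.24 ± 0.14 (limma, adjusted p = 4.91e-07), beside Pdyn above. Trh, whose level was low, had a median of 43.9 in the DG and 13.2 in CA1. Cck, the cholecystokinin gene, ranged from 2978 to 5300.3 in CA1 (median 3885) and 821 to 1839.9 in the DG (median 1297), a difference of -1.65 ± 0.11 (limma, adjusted p = 9.51e-10). Vip and Tac1, known from interneurons, had medians of 318 in CA1 and 112 in the DG for Vip and 73.2 in CA1 and 20.9 in the DG for Tac1.

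All 8 tested neurotrophin genes passed, and the ligands Bdnf and Ntf3 were higher in the DG. Bdnf ranged from 928 to 1229.7 in the DG (median 1076) and 317 to 511 in CA1 (median 398), 2.66-fold higher (1.41 ± 0.06, limma, adjusted p = 3.57e-11), with a CA3 range of 661 to 981 (median 755). Ntf3 (neurotrophin-3) ranged from 283 to 401 in the DG (median 326) and 45.3 to 143 in CA1 (median 85.6), a difference of 2.12 ± 0.13 (limma, adjusted p = 5.53e-10). Bdnf and Ntf3 did not overlap. Of the receptors, Ntrk3, which binds neurotrophin-3, was higher in the DG (1175 to 1837 in the DG, median 1480.1, and 713 to 1156 in CA1, median 882), while Ntrk2, which binds BDNF, was slightly higher in CA1 (-0.27 ± 0.06, limma, adjusted p = 0.000941). Ngfr, the p75 receptor of neurotrophins, was higher in CA1 at a low level, with a median of 65.2 in CA1 and 18.5 in the DG.

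Of 20 genes induced by neuronal activity 12 were higher in CA1 and 5 in the DG, against 24.6% and 24.5% of all tested genes, with a median of -0.41. Without the rat as a block the CA1 count was 9. Egr1, a zinc finger factor induced by synaptic activity, ranged from 2892 to 6727 in CA1 (median 4537) and 1161 to 2108 in the DG (median 1554), 2.68-fold higher in CA1 (-1.42 ± 0.11, limma, adjusted p = 8.53e-09). Egr2 ranged from 164 to 519 in CA1 (median 257) and 41 to 126 in the DG (median 81.6), and the orphan receptors Nr4a1 and Nr4a2 differed by -1.68 ± 0.12 and -1.35 ± 0.08. No DG library reached a CA1 library in Egr1 or Egr2. Among the 5 higher in the DG, a share of the list close to that of all genes, were Jun and Btg2. Jun, a subunit of AP-1, ranged from 3660.4 to 5508 in the DG (median 4286) and 1410.0 to 2502 in CA1 (median 1731), a difference of 1.32 ± 0.06 (limma, adjusted p = 4.22e-11), and Btg2, an antiproliferative gene, from 479 to 769 in the DG (median 622) and 154 to 387 in CA1 (median 259). Egr3 was higher in the DG by a small margin (0.29 ± 0.07, limma, adjusted p = 0.0027).

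Of 55 axon guidance genes 25 were higher in the DG and 17 in CA1, with 7 and 8 at least 2-fold. Unc5d, a netrin receptor, ranged from 995 to 1579 in the DG (median 1243) and 107 to 511 in CA1 (median 267), a difference of 2.39 ± 0.15 (limma, adjusted p = 6.47e-10). The semaphorin receptor Nrp2 ranged from 2144 to 2882 in the DG (median 2414) and 509 to 1079.7 in CA1 (median 663) and Sema5a, a transmembrane semaphorin of granule cells, from 5098 to 6741 in the DG (median 5534) and 1008 to 2696 in CA1 (median 1766). None of the 3 overlapped. On the CA1 side, Sema5b ranged from 334 to 625 in CA1 (median 481) and 87.8 to 204 in the DG (median 117) and Plxnd1, the receptor of Sema3e, from 958 to 1451 in CA1 (median 1258) and 208 to 633 in the DG (median 379.7). The family of class 5 semaphorins was thus split, with Sema5a at 1.74 ± 0.10 and Sema5b at -1.91 ± 0.11.

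Synaptic adhesion genes were higher in the DG in 19 of 37 cases and in CA1 in 9, with a median of 0.19. Flrt3, a postsynaptic partner of latrophilins, ranged from 586 to 1120.5 in the DG (median 787) and 91.4 to 239 in CA1 (median 163), a difference of 2.33 ± 0.14 (limma, adjusted p = 4.12e-10), while its paralog Flrt2 was higher in CA1 (315 to 673 in CA1, median 516, and 123 to 289 in the DG, median 182). Neither overlapped between the regions. Nptx1, a secreted pentraxin that gathers AMPA receptors, ranged from 22559 to 29513 in the DG (median 25654) and 5629 to 10210 in CA1 (median 7273), a difference of 1.79 ± 0.08 (limma, adjusted p = 4.22e-11). C1ql3 and Lrrtm4, the latter a postsynaptic protein of granule cell dendrites, differed by 1.24 ± 0.11 and 1.09 ± 0.11. Cbln2, a synaptic organizer of the cerebellin family, was higher in CA1, with a median of 308 in CA1 and 78.6 in the DG.

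Of 24 cadherins and protocadherins 9 were higher in each region. Cdh9, which acts at synapses between mossy fibres and CA3, ranged from 382 to 748 in the DG (median 519.7) and 47.7 to 164 in CA1 (median 91.2), a difference of 2.52 ± 0.15 (limma, adjusted p = 4.53e-10). Pcdh19 and Pcdh8 were higher in the DG by 1.33 ± 0.10 and 1.17 ± 0.07. Cdh6, Cdh18 and Cdh22 were higher in CA1, and Cdh22 ranged from 781 to 1139 in CA1 (median 967) and 252 to 526 in the DG (median 394). The margins of Cdh6 and Cdh18 were -1.89 ± 0.17 and -1.66 ± 0.12, so type II cadherins stood on both sides.

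Presynaptic genes divided, 17 of 37 higher in the DG and 12 in CA1. Unc13c (Munc13-3), a vesicle priming protein, ranged from 471 to 1488 in the DG (median 754) and 112 to 235 in CA1 (median 146), a difference of 2.34 ± 0.17 (limma, adjusted p = 2.3e-09). Complexin 2 (Cplx2), which clamps and aids fusion, ranged from 25230 to 50785 in the DG (median 28888) and 8582 to 17742 in CA1 (median 12402). Its highest DG libraries were those of rats 3339 and 3342, and its difference was 1.33 ± 0.11 with and 1.2 without both rats. Syt10, a calcium sensor, was 3.68-fold higher in the DG (limma, adjusted p = 9.9e-07), at 41.6 to 89.4 in the DG (median 54.1) and 3.83 to 33.7 in CA1 (median 16). None of the 3 overlapped. Doc2b, a high-affinity calcium sensor, and Syt2 were higher in CA1, with differences of -1.09 ± 0.09 and -1.38 ± 0.13.

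Calcium and cAMP signalling genes were higher in the DG in 17 of 44 cases and in CA1 in 17, with a median of 0.02. Adcy1, a calmodulin-stimulated adenylyl cyclase, ranged from 14346 to 23261 in the DG (median 17600) and 4038 to 9087 in CA1 (median 5731), a difference of 1.59 ± 0.09 (limma, adjusted p = 1.4e-10). The calcium release channels divided. Ryr2 and Ryr1 were higher in the DG, Ryr1 by 1.26 ± 0.15, whereas the IP3 receptor gene Itpr1 was higher in CA1, from 12787 to 20223 in CA1 (median 16689) and 5201 to 9938 in the DG (median 6700.3) (-1.32 ± 0.08, limma, adjusted p = 5.53e-10). Prkcb, a protein kinase C isoform, ranged from 3381 to 5974 in CA1 (median 4987) and 1540.1 to 2769.9 in the DG (median 2225). Phosphodiesterases stood on both sides, with Pde1b and Pde7b higher in the DG (1.33 ± 0.11 and 1.31 ± 0.13) and Pde4b in CA1 (-1.01 ± 0.08). Of the calcium-binding proteins, S100a10 was 4.15-fold higher in CA1 (208 to 391 in CA1, median 321, and 44.8 to 112 in the DG, median 73.8) and Necab1 2.42-fold higher in the DG (889 to 1799.7 in the DG, median 1073, and 319.7 to 743 in CA1, median 424). 

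Of 36 tested Wnt and BMP genes 12 were higher in the DG and 16 in CA1. The ligands Wnt4 and Wnt2 lay on opposite sides, Wnt4 at 3381 to 5736 in the DG (median 4317) and 1309.8 to 2859 in CA1 (median 1685) and Wnt2 at 525 to 903 in CA1 (median 722) and 55.4 to 286 in the DG (median 126). Their differences were 1.32 ± 0.10 (limma, adjusted p = 3.66e-09) for Wnt4 and -2.39 ± 0.19 (limma, adjusted p = 1.14e-08) for Wnt2. The Wnt receptor Fzd7 was higher in CA1 (104 to 175 in CA1, median 146, and 0.924 to 50.1 in the DG, median 26.2), and Rspo3, a secreted enhancer of Wnt signalling, was higher in the DG (185 to 314 in the DG, median 259, and 58.7 to 134 in CA1, median 85.8). Of 7 corticosteroid genes 2 were higher in the DG and 2 in CA1. Nr3c2, the mineralocorticoid receptor, did not pass (-0.10 ± 0.09, limma, adjusted p = 0.342), with a median of 1918 in the DG and 1964 in CA1. The stress response genes Fkbp5 and Sgk1 lay on opposite sides, at 0.48 ± 0.06 and -0.69 ± 0.14. Of 11 genes of the perineuronal net and matrix 5 were higher in CA1 and 1 in the DG, the proteoglycan Acan (0.75 ± 0.15, limma, adjusted p = 0.000374), and without rats 3339 and 3342 the DG was higher in 2.

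Of 25 interneuron markers 18 were higher in CA1, 3 in the DG and 4 did not pass, with a median of -0.40. The summed level was 28256 to 37313 in the DG and 31840 to 43607 in CA1. Pvalb, of fast-spiking basket cells, ranged from 569.9 to 889 in CA1 (median 712) and 268 to 596 in the DG (median 382), a difference of -0.85 ± 0.08 (limma, adjusted p = 1.26e-07), and Vip was 2.98-fold higher in CA1. The regions overlapped slightly in Pvalb. Lamp5 went the other way at 937 to 1544 in the DG (median 1131) and 307 to 511 in CA1 (median 387) (1.56 ± 0.08, limma, adjusted p = 9.05e-11), with a CA3 median of 1258, and Lamp5 and Cck are also expressed by principal cells.

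Glial and vascular markers had a median below 0 in all 6 lists. All 17 oligodendrocyte markers were higher in CA1, 16 of them at least 2-fold, with a median of -1.22. Mbp, myelin basic protein, ranged from 103290 to 193240 in CA1 (median 129550) and 34781 to 62817 in the DG (median 48904), a difference of -1.49 ± 0.09 (limma, adjusted p = 3.91e-10), and Mobp from 9552 to 18496 in CA1 (median 10964) and 3074 to 4589.5 in the DG (median 3735). No library overlapped in either gene. The summed level of the list was 67718 to 111250 in the DG, 179580 to 322950 in CA1 and 244000 to 402540 in CA3. The other 5 lists differed by less. Of the precursor markers 6 of 8 were higher in CA1, of the astrocyte markers 12 of 18, of the microglia markers 12 of 15, of the endothelial markers 10 of 11 and of the mural and fibroblast markers 12 of 16, with medians of -0.46, -0.28, -0.32, -0.38 and -0.49.

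Aqp4, the water channel of astrocyte endfeet, ranged from 3524 to 6254 in CA1 (median 5576) and 2986 to 5077 in the DG (median 3779) (-0.49 ± 0.10, limma, adjusted p = 0.000321), and the microglial complement gene C1qc from 655 to 1221 in CA1 (median 928) and 534 to 952 in the DG (median 658) (-0.43 ± 0.07, limma, adjusted p = 5.55e-05). The 1 astrocyte marker higher in the DG was Fabp7, which neural stem cells also express (0.47 ± 0.09, limma, adjusted p = 0.000238). Dcn, decorin of fibroblasts, was 3.42-fold higher in CA1, at 168 to 314 in CA1 (median 246) and 47 to 128 in the DG (median 68.6). These lists moved with the region, and their part in the genes described above was not tested. Klk6, Mal, Sept4 and Hapln2 are themselves genes of oligodendrocytes or of myelinated axons. Ttr, made in quantity by the choroid plexus, ranged from 11.2 to 1673 in CA1 (median 134) and 2.59 to 6915 in the DG (median 30.7), with 1 DG library (rat 3596) far above the other 11.

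Adult-born granule cells pass through a stage marked by Dcx. Of 10 immature neuron genes tested 2 were higher in the DG (Neurod1 and Tubb2b), 2 in CA1 (Stmn1 and Tubb3) and 6 did not pass, among them Dcx itself (0.17 ± 0.09, limma, adjusted p = 0.155), with a median of 244 in the DG and 212 in CA1, which was picked by name outside the rule. The DG libraries of rats 3339 and 3342 had the highest sums of this list, at 35755 and 35667. Without these rats 2 genes were higher in the DG and 3 in CA1. Tubb2b, a tubulin of growing neurites, had 0.19 ± 0.06 (limma, adjusted p = 0.0124) and Stmn1 -0.57 ± 0.09 (limma, adjusted p = 2.11e-05). Of 15 cell division genes 6 were higher in CA1, 1 in the DG and 8 did not pass. The 1 gene higher in the DG was Mcm4, a subunit of the replicative helicase, at 325 to 656 in the DG (median 504) and 209 to 318 in CA1 (median 256) (0.91 ± 0.09, limma, adjusted p = 7.26e-08), while Mcm2 and Mcm3 of the same complex were higher in CA1, with differences of -0.37 ± 0.10 and -0.58 ± 0.16. 

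Of 69 ribosomal protein genes 10 were higher in the DG and 3 in CA1, with a median of 0.02. The count for CA1 was 13 without rats 3339 and 3342, 10 without rat 3339 alone and 1 without rat 3595 or 3596. Their reads can be shared with near-identical copies elsewhere in the genome. Mitochondrially encoded genes were higher in CA1 in 8 of 13 cases and in the DG in none, with a median of -0.29. Without the rat as a block 0 of the 13 passed by limma, with 3 at an unadjusted p under 0.05. Without rats 3339 and 3342 all 13 passed. These 2 rats were chosen for the high sums of these same genes in their DG libraries, so that count is no test of the list. Without rats 3593 and 3598 5 passed. Mt-nd2 ranged from 39968 to 149440 in CA1 (median 70774) and 23582 to 121390 in the DG (median 51185), a difference of -0.49 ± 0.12 (limma, adjusted p = 0.0028). Its highest DG libraries were those of rats 3339 and 3342. Their summed level in CA1 also parted the runs of animal numbers. It was 1530400 to 2487300 in rats 3337 to 3342 and 925120 to 1331300 in rats 3593 to 3598. The call toward CA1 thus rests on the pairing within rats, and the part of these genes in the other results was not tested.

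**Figure D4:**
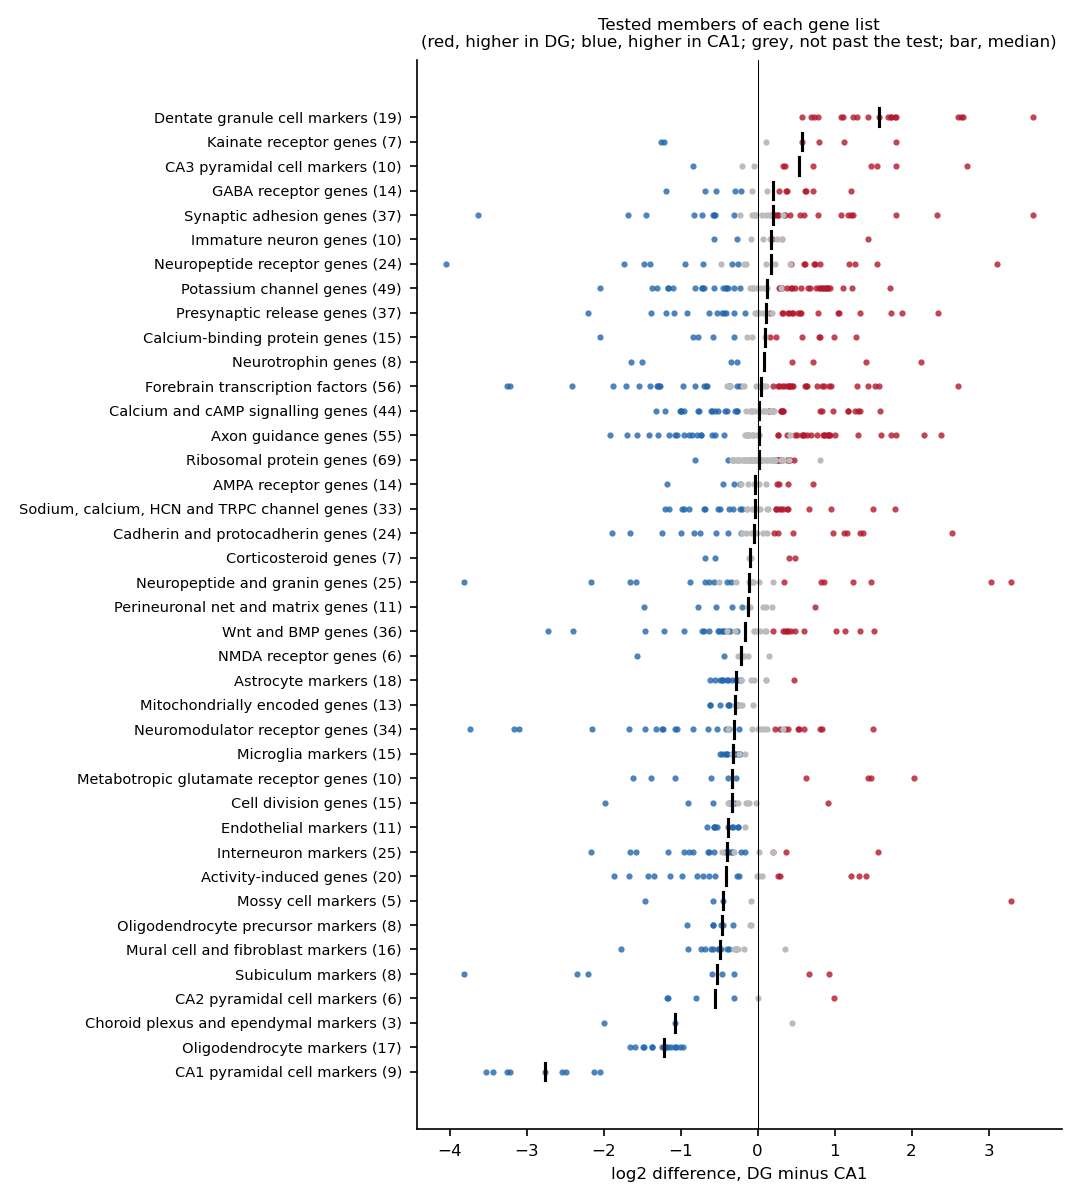
Each row is a gene list with the number of tested members in parentheses, and each point is a member at its log2 difference, DG minus CA1 (red, called and higher in the DG; blue, called and higher in CA1; grey, not past the test), with the list's median as a bar. The rows are sorted by median, from granule cell markers at 1.58 to CA1 pyramidal cell markers at -2.77, and most neuronal gene families have members far out on both sides.

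The levels of CA3 in the same rats were set beside these values on the same scale, as a description with no test. Of 458 genes at least 2-fold higher in the DG with a value in the CA3 table, 50 had a CA3 median at or above that of the DG, 282 lay between the DG and CA1, and 126 lay at or below CA1. For 573 genes at least 2-fold higher in CA1, 171 had a CA3 median at or above that of CA1, 328 lay between and 74 lay at or below the DG. On the log2 scale CA3 was closer to CA1 for 65.7% of the genes higher in the DG, and closer to CA1 for 56.2% of the genes higher in CA1. Grm2 and Gabrd show the first pattern, with CA3 medians of 373 and 285, below those of CA1. Cpne4, Npy2r and Neto1 lay above the DG in CA3, with medians of 7064, 239.7 and 3022. Among genes higher in CA1, Htr1b and Ndst4 had low CA3 medians of 117 and 33.7, while Mal and Mobp had higher medians in CA3 than in either region, at 5465 and 18291.

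The same contrast was made in the 16 rats of 12 months, none of which entered the comparison above. There 8056 of 14498 tested genes passed, which is 55.6% of them. Of the 1027 genes at least 2-fold apart at 5 months and tested at 12 months, 1018 (99.1%) had the same direction and 1002 (97.6%) passed the test in that direction. Of all 7068 called genes tested at both ages the shares were 95.4% and 78.8%. C1ql2 differed by 3.32 at 12 months, Prox1 by 2.53, Met by -4.66 and Wfs1 by -3.07. These lay close to the 5-month values of 3.57 ± 0.30, 2.60 ± 0.17, -4.48 ± 0.32 and -2.77 ± 0.24, and none of the 4 was called for a difference between ages.

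**Figure D5:**
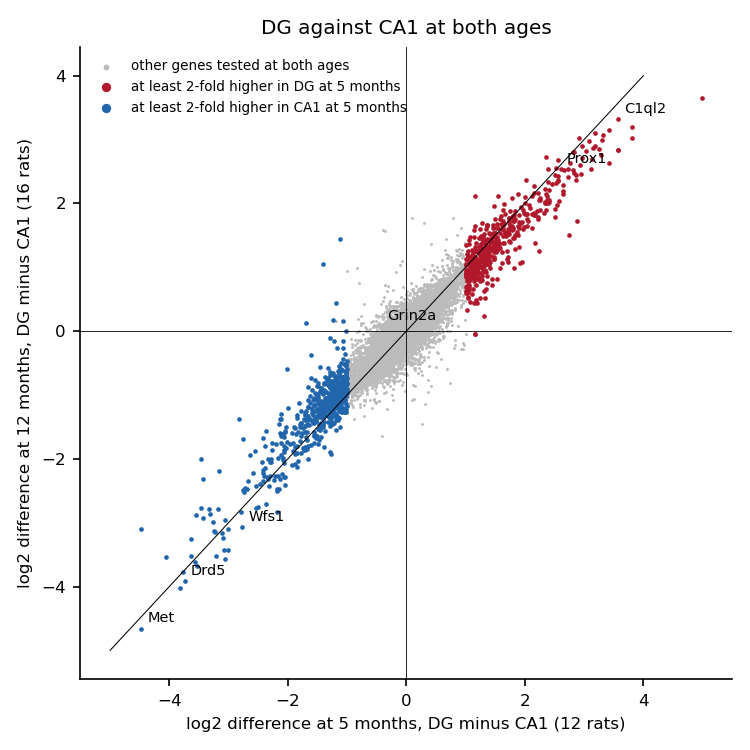
Each point is a gene tested at both ages, with the log2 difference, DG minus CA1, of 12 rats of 5 months on the horizontal axis and of 16 rats of 12 months on the vertical axis, and the line marks equal values. The 1027 genes at least 2-fold apart at 5 months lie along the line at both ends, and 9 of them have the opposite sign at 12 months.

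Whether the difference between the regions itself differed between ages was tested within rats, and 151 of 15005 genes passed (1.01%). In 100 of them the DG minus CA1 difference was higher at 12 months and in 51 lower, which is 66.2% higher. That split depended on the scaling and was 47.9% with TMM and 84.7% with CPM (counts scaled to the library total). The 2 runs of animal numbers, with 6 rats each, were also compared. Of 1013 genes at least 2-fold apart and tested in both runs, all 1013 had 1 direction in both and 964 (95.2%) passed in both. These genes were chosen on the same 12 rats, so their shared direction was largely fixed by that choice. Of 4664 genes called in the first run and tested over all 12 rats, 4423 (94.8%) had the same direction in the second. The first run alone called 4676 genes and the second 6254. The difference between the regions itself differed between runs in 2 of 14495 genes (0.0138%), with 2086 at an unadjusted p under 0.05. These were Slirp, which binds mitochondrial RNA, and Rps15a, a ribosomal protein gene, and they are named because they were the only genes called here, after their values were seen.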

How the data were processed

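The deposited tables hold gene counts that the authors divided by 1 size factor per library (unit signal, median-of-ratios scale), separately for each region. Of tools, STAR 2.5.3a, Partek and DESeq2 3.5 appear in the submitters' processing notes, beside the genome build rn6, with no order or role. Per the labels' protocols, RNA of 1 hemisphere was selected for polyA and sequenced with an Ion kit, and whether counting used strand is not given in the sources used here. In the 24 libraries 100% of the values up to 1000 reads lay within 0.1 of a whole read, which gave the reads per library. The columns were mapped by animal number, and 1 column of no mapped sample was not used.

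All 24 columns were rescaled together by median of ratios over symbols in both tables. A gene entered the test if 12 or more libraries reached 10, and it was tested on log2(value + 1), a scale that understates the change of low genes, with limma 3.58.1 (trend, R 4.3.3) and the rat as a block. A gene was called at a Benjamini-Hochberg adjusted p under 0.05. Tests of the 12-month rats, of age and of the runs of animal numbers were built alike. Both libraries of a rat come from the same animal by their titles. The correlation of their deviations from the region means was -0.018 to 0.432, and it was highest with the own partner in 1 of 12 rats. The paired fit of the regions and the fit of the runs of animal numbers were tried on simulated counts.

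Members and lists were chosen with earlier results of these data known, so the counts of lists are descriptions. Named genes are, per direction, the 12 of largest difference with a mean of at least 100 in the higher region, the 8 of smallest p, and the 4 of largest difference per list with a mean of at least 20. Lists of at most 10 members are named in full. So is every tested member of the granule, CA1, CA3, CA2, mossy and subiculum marker lists. Other scalings, filters, pseudocounts and tools (edgeR 4.0.16, DESeq2 1.42.0 on the recovered reads) were tried, as was leaving out each rat. No pair of libraries agreed within sampling noise. Some results are not reported here. Each replicate is a separate animal by the titles. With the rat as a block, p-values measure the spread between rats of the DG minus CA1 difference, which limma moderates across genes.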

Additional observations from a re-analysis of the deposited data

Results flagged for a closer look

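Grin2a, the GluN2A subunit of the NMDA receptor, was singled out among the named genes because its difference between the regions differed between ages. DG minus CA1 was -0.43 on the log2 scale at 5 months and 0.08 at 12 months, a shift of 0.51 ± 0.12 (SE; limma, adjusted p = 0.042). Only named genes were searched for this, and 151 of all 15005 genes passed the same test. When a fold of 1.2 had to be exceeded 0 genes passed, so the call of Grin2a was lost there. Without the rat as a block 10 genes passed.

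Slirp and Rps15a were singled out because their difference between the regions differed between the runs of animal numbers at 5 months. DG minus CA1 of Slirp was 0.70 in rats 3337 to 3342 and -0.72 in rats 3593 to 3598, a difference of -1.42 ± 0.17 (limma, adjusted p = 0.00329). For Rps15a the values were 0.88 and -0.46, a difference of -1.34 ± 0.20 (limma, adjusted p = 0.0341), and reads of ribosomal protein genes can be shared with near-identical copies.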

How the results depend on the processing

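Many of the 282 named genes were picked for large differences or small p in the same 24 libraries. Of them 268 were called. None of the 268 reversed under any alternative run, which says little about the other called genes. The call was lost by 56 in at least 1 alternative, by 53 of them when a fold of 1.2 had to be exceeded. That setting left 2688 genes called at 5 months (1200 higher in the DG and 1488 in CA1), 2925 at 12 months and 0 for age (limma), where 218 had an unadjusted p under 0.05. The first run of 6 rats alone called 4676 genes, 2276 of them higher in the DG. Without 1 rat in turn 6539 to 7106 genes were called, 3284 to 3535 higher in the DG and 3255 to 3571 in CA1, and 1007 to 1094 were at least 2-fold. Without the pairing of libraries by rat as a block 6749 genes were called at 5 months, 10 for age and 29 for the runs.

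The counts for age and run moved with the tool. For age CPM gave 236 genes, DESeq2 487 and the first run 27. For the runs CPM, edgeR, robust moderation, a pseudocount of 5 and a minimum of 50 gave 5 each, DESeq2 274 and the minimum fold 1. Genes that reversed had not passed the test. Amigo2 turned to 0.034 with quantile normalization, 0.00016 as deposited, 0.00070 with DESeq2 and 0.113 in the second run, and ran from -0.024 to 0.040 without 1 rat. It was 0.0016 without rats 3339 and 3342, an alternative chosen after seeing the data, as was that without rats 3593 and 3598. In the second run Ajap1 was 0.019, Bok 0.077, C1ql1 0.079 and Cdh24 0.016, and Bok ran from -0.12 to 0.033 without 1 rat. The cause was not tested. Depth limits the low genes, for which 10 normalized reads were required.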
